A study of Mus musculus with 74 samples.

Results

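Zfp931 is a zinc finger protein with a Krüppel-associated box (a KRAB-ZFP), encoded in the large cluster of such genes on mouse chromosome 2. The peaks of its chromatin immunoprecipitation (ChIP) were the rows that carried the name Zfp931 in the deposited peak table, 346 of the 53011 rows that could be tied to a labelled sample. B6 embryonic stem (ES) cells overexpressed Zfp931 with a C-terminal 3XHA tag from an integrated vector with a codon-optimised reading frame, and drug-resistant clones were pooled. The HA antibody clone 16B12 was used. The 8 other B6 ES samples with rows in the table (Gm14295, Gm14399, Gm14401, Gm14419, Gm14420, Gm14443, Gm4631 and Gm8898) each expressed a different KRAB-ZFP of the same kind and held 256 to 3906 peaks. Each protein had 1 library, and the intervals given cover counting error alone. Zfp931 shared its input, TI_443_Input, with Gm14295 and Gm14443, while the other 6 ES samples were called against a different input. Library depth is unknown, as the files list tags for called peaks alone. Since the table holds no gene levels, the cell type could not be checked against its markers.

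KRAB-ZFPs bind DNA through an array of C2H2 zinc fingers, each of which contacts a few neighbouring bases. The KRAB domain recruits the corepressor KAP1 (TRIM28), which brings the histone methyltransferase SETDB1 and other silencing factors. Many of these proteins recognise copies of retrotransposons, in particular the long terminal repeats (LTRs) of endogenous retroviruses, which begin with TG and end with CA. The longest annotated coding sequence of Zfp931 held 7 matches to the C2H2 pattern in 298 residues, although the expressed reading frame may differ from this gene model. The annotation placed the gene at chr2:177802400-177813181 (minus strand, mm9), and no Zfp931 peak lay within 10 kb of it.

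Many of the higher-scoring Zfp931 peaks, though not all of the strongest, fell on copies of one repeated sequence. When the 200-bp windows around the summits were linked by likeness (at least 75% identity over at least 80 bp), 70 of the 346 windows (20.2%, 95% Wilson interval 16.3 to 24.8%) formed 1 group. The next groups held 6 windows each. The windows of 5 grouped peaks with high enrichment are shown because they carry the shared site. They lay at chr16:93852452-93852651 in an intron of Morc3, at chr6:54899985-54900184 (minus strand) in an intron of Nod1, at chr4:126679775-126679974 in intergenic sequence 18.7 kb from the start of Sfpq, at chr3:9010489-9010688 (minus strand) 5.87 kb from the start of Tpd52, and at chr12:21944586-21944785 in intergenic sequence. Coordinates refer to mm9 and sequences were read from the NCBIM37 assembly, which is the same build. Capitals mark each intact copy of an 8-base word, TTCCGGCC, that is described below.
Morc3 peak: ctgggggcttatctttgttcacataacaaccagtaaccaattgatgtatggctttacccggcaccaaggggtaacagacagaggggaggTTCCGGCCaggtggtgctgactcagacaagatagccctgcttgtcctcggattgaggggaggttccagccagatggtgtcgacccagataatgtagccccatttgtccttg
Nod1 peak: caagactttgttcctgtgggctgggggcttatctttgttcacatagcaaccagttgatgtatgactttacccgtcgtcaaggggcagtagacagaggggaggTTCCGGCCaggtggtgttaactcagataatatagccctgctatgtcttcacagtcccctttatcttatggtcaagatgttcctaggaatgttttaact
Sfpq peak: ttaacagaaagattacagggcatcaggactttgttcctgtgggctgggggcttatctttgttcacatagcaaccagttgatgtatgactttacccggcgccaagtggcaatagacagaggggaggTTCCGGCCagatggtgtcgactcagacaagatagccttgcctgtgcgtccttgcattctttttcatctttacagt
Tpd52 peak: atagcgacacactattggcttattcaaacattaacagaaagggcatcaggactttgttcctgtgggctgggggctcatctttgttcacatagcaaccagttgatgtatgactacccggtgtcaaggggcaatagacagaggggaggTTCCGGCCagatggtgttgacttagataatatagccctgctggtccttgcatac
Chromosome 12 peak: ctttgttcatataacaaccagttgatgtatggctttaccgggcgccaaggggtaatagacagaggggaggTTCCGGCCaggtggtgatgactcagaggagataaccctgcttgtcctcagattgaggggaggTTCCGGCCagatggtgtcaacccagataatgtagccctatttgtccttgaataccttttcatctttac

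The Morc3 and chromosome 12 windows held the surrounding stretch more than 1 time in tandem. In the chromosome 12 window both repeats kept the word, and 10 of the 70 grouped windows held the word more than 1 time.

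The deposited enrichment described a modest peak set. Zfp931 peaks had 9 to 261 tags (median 11), a fold enrichment over input of 3.73 to 27.9 (median 10.2) and a score of 50 to 282 (median 56), where the score is −10 log10 of the MACS14 p-value. The deposited false discovery rate (FDR) ranged from 31% to 100%, so no peak met 5%, and 40 peaks had a score over 100. Of the other ES samples, Gm14295, Gm14399 and Gm4631 also had no peak at an FDR of 5% or less, against 3896 of 3906 for Gm14419. Grouped peaks had the higher scores and tag counts. Their median score was 85.6 against 55.1 for the 276 other peaks, their median tag count was 19 against 10, and 30 of the 40 peaks with a score over 100 were grouped. Their deposited FDR was the higher one, with a median of 49.2% against 37.2%, and the peaks at Morc3, Nod1, Sfpq, Tpd52 and Irak3 each carried an FDR of 100%.

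**Figure D1:**
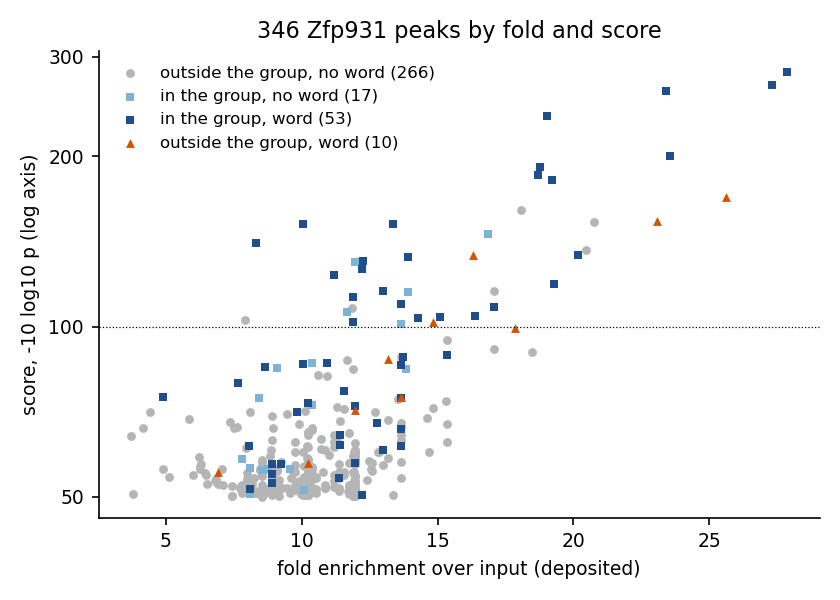
Deposited fold enrichment (x axis) and score (y axis, log scale) of each of the 346 Zfp931 peaks, by membership of the largest sequence group and presence of the 8-base word. The dotted line is a score of 100, and 30 of the 40 peaks above it belong to the group of 70.

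Of the 20 peaks with the highest fold enrichment, 11 belonged to the group and all of those 11 held the word, while 9 lay outside it, 3 with the word and 6 without. The Morc3 peak was the highest, with 43 tags, a fold of 27.9 and a score of 282. Morc3 encodes an ATPase of the MORC family with a role in silencing retroelements, and the summit lay 20.2 kb from its start. The Nod1 peak followed with 37 tags and a fold of 27.3 (Nod1 senses bacterial peptidoglycan). The Sfpq peak had 34 tags and a fold of 23.5 (Sfpq is a splicing and paraspeckle protein). The Tpd52 peak had 41 tags and a fold of 23.4. Further grouped peaks lay in introns of Irak3 (39 tags, fold 19), an inhibitor of Toll-like receptor signalling, and of Rab6b (19 tags, fold 17.1), a Golgi GTPase, 5.2 kb from the start of Usp14 (32 tags, fold 19.2), a proteasome-associated deubiquitinase, and 30.3 kb from the start of Lrrn2 (31 tags, fold 18.8). Besides the chromosome 12 peak shown above (23 tags, fold 20.15), 2 more lay in an intron of the histone gene Hist1h2be (38 tags, fold 18.7) and 10.2 kb from the start of Gm9590 (22 tags, fold 19.3).

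The 6 peaks without the word and outside the group were those of Fbxo17 and Ano6, described with the gene starts, and 4 others. The Ikzf3 peak (32 tags, fold 18.1, score 160) lay in an intron of this gene for a lymphoid transcription factor, and the Clybl peak (19 tags, fold 17.1) in an intron. The peak nearest the microRNA gene AC109245.1 (18 tags, fold 18.5) and that nearest the pseudogene Gm16422 on chromosome X (10 tags, fold 17.1) were intergenic.

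Of the 70 grouped summits, 2 (2.86%, 0.787 to 9.83%) lay within 1 kb of an annotated transcript start, a distance that covers 4.15% of the assembled genome. Of the grouped summits 50 were intergenic, 18 intronic and 2 in untranslated exons. Among all 346 peaks, 209 were intergenic (60.4%) and 114 intronic (32.9%), and annotated genes cover 41.2% of the genome.

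The peak with the third highest fold (25.6, 24 tags) lay in an intron of Parp1, a poly(ADP-ribose) polymerase that senses DNA breaks. It was outside the group by the 80-bp rule but its window reached into the end of a copy of the element described below and held 24 of the 25 bases of the core shared by the group. Fold and tags did not rank the peaks alike. The highest tag counts, 261 and 230, belonged to 2 grouped peaks on chromosome 8, near the pseudogene Gm10060 and in introns of the overlapping genes 2610005L07Rik, AC152164.1 and Gm17279, with folds of 8.33 and 4.89.

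The sequence shared by the grouped peaks reached well beyond the 200-bp windows and then stopped. Among all pairs of grouped peaks, 82.4% aligned to each other at the summit, 49.6% at 300 bp on one side and 31.2% at 200 bp on the other, and 3.02% at 300 bp on that other side. More than 5% of the pairs aligned between −440 and 282 bp. The consensus of the 70 regions matched 507 stretches of the assembled chromosomes that cover the shared site. Of these, 235 began within 5 bp of one position and 201 ended within 5 bp of another, which gave an element of 592 bp. It began with TGTAA and ended with CTTCA, so it opened with TG and closed with CA. No repeat annotation was used here, and the element is therefore described by its sequence without a family name.

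**Figure D2:**
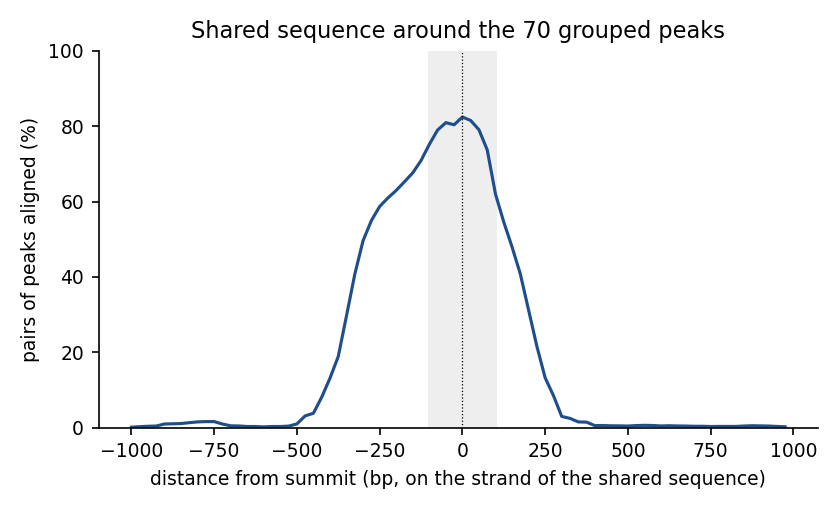
Share of ordered pairs of the 70 grouped peaks that align at each distance from the summit (x axis, bp), with at least 75% identity over at least 80 bp. The grey band is the 200-bp window; the share is 82.4% at the summit and falls to 3.02% at 300 bp on the right.

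Words of 8 to 12 bases were ranked in the grouped windows by their share over that in all 12791934 windows of 200 bp of the genome, both strands counted. The 10 leading words all overlapped TTCCGGCC. The leading word, TTCCGGCCAGAT, was in 38 of 70 grouped windows (54.3%), in 0 of the 276 others and in 0.00129% of genome windows. The shorter TTCCGGCC was in 53 of 70 grouped windows (75.7%), in 10 of 276 others (3.62%, 1.98 to 6.54%) and in 0.079% of genome windows. It was chosen after these values were seen, as the 8-base word with the highest ratio outside the group, so its excess in neither set is a test. Grouped windows also share letters by the way they were chosen. A further reading, added after these values were seen, takes the leading word of each length from the grouped windows alone and counts it in the 275 ungrouped windows that hold no near copy of the core. GTTCCGGC, the leading word of 8 bases, was in 5 of them (1.82%, 0.779 to 4.18%) and in 0.0484% of genome windows. GTTCCGGCC was in 4 (1.45%, 0.567 to 3.68%) and in 0.0146% of genome windows. The leading words of 10 and 11 bases were in 1 each and that of 12 bases in 0. TTCCGGCC lay within 50 bp of the summit in 46 of the 53 grouped windows that held it (median distance 23 bp) and in 6 of 10 outside the group (median 41.5 bp). Since 50 bp to either side is a large part of a 200-bp window, the 6 of 10 do not show that the word sat at the summit. Windows 400 bp to either side of the summits held it in 0 of 276 cases outside the group, and windows 200 bp away in 0 on the left and 4 on the right.

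Values of the other ES samples are given for TTCCGGCC as a description, since the word was chosen in the Zfp931 windows. It was in 63 of 346 Zfp931 windows (18.2%, 14.5 to 22.6%), against 5 of 3906 for Gm14419 (0.128%), 4 of 1541 for Gm14401 (0.26%), 1 of 383 for Gm14420 (0.261%), 1 of 480 for Gm14443 (0.208%) and 1 of 1517 for Gm8898 (0.0659%). Gm14295, Gm14399 and Gm4631 had it in 0 of 256, 0 of 322 and 0 of 371 windows, with upper Wilson bounds of 1.48%, 1.18% and 1.02%.

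Of the 10 ungrouped peaks with the word, 6 lay within 1 kb of a transcript start. The core of the element and 7 of the ungrouped sites are shown on the strand of the word to let the bases beside it be compared, with the word in capitals. The Parp1 site was at chr1:182504699-182504723, the Rcor3 site at chr1:193962042-193962066, the Zfp560 site at chr9:20189506-20189530 in an untranslated exon, the Socs5 site at chr17:87524959-87524983 (minus strand), the Ralgds site at chr2:28369261-28369285, the Dbnl site at chr11:5688423-5688447 and the Cox6b1 site at chr7:31411145-31411169 (minus strand).
Element core: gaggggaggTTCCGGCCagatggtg
Parp1: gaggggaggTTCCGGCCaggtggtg
Rcor3: ctagggaggTTCCGGCCgcggggcg
Zfp560: cagcggaggTTCCGGCCgcgctggc
Socs5: cagcggaggTTCCGGCCaccacgcg
Ralgds: agggaaggcTTCCGGCCcgtggggt
Dbnl: cacttccgcTTCCGGCCtcttgggc
Cox6b1: tctcgcagcTTCCGGCCagtcggaa

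Apart from the Parp1 site, these matched the core at 13 to 18 of 25 positions. That count includes the 8 bases of the word, which match by selection. At the Rcor3, Zfp560 and Socs5 sites, the match ran on unbroken for 6, 5 and 5 bases before the word. It ran for 0 bases at the Ralgds, Dbnl and Cox6b1 sites. Among the ungrouped sites not shown, it ran for 0 bases at Hvcn1 (24 tags, fold 16.3) and Sik2 and for 2 at Arid1b. The Rcor3 peak (23 tags, fold 23.1, score 154) lay 138 bp from the start of Rcor3, a corepressor of the CoREST family. The Zfp560 peak (19 tags, fold 14.8, score 102) lay 56 bp from the start of Zfp560, itself a zinc finger gene. The Ralgds peak (19 tags, fold 17.9, score 99.4) lay 439 bp from the start of this Ral exchange factor gene, the Dbnl peak (15 tags, fold 13.2) at 1 bp and the Cox6b1 peak (13 tags, fold 11.9) at 24 bp. The Sik2 peak, 138 bp from its start, was near the threshold with 11 tags and a score of 57.4. Of the 34 ungrouped peaks within 1 kb of a start, 6 held TTCCGGCC, a count that belongs to the values the word was chosen on. GTTCCGGC, chosen in the group alone, was in 3 of the 34 (8.82%, 3.05 to 23%), against 0.72% of the 200-bp windows centred on the 86842 annotated transcript starts. The 34 windows had a median GC content of 62%, against 42.2% for the other 242 ungrouped windows. Base composition moved with the position at starts, and its part in these counts was not tested.

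Not every copy of the element carried a peak. After joining neighbouring alignments, 442 copies on the assembled chromosomes held the site position, and a Zfp931 window covered the site in 64 of them (14.5%, 11.5 to 18.1%). In 208 copies at least 1 site kept the word intact, and 54 of these had a peak (26%, 20.5 to 32.3%). Among the 234 copies in which the word was changed, 10 had a peak (4.27%, 2.34 to 7.69%). The state was read within the aligned copy alone. The peak window of 1 of these 10 copies held an intact word beyond the end of the copy. Since the word was chosen in windows with peaks, copies with a peak hold it more often by construction. The shares by word state are therefore a description and no test. The commonest changes were at the CpG of the word, a dinucleotide that is prone to mutate when methylated. With C4T, counted from 1 at the 5′ end of the word, 7 of 92 copies had a peak (7.61%, 3.73 to 14.9%), and with G5A it was 1 of 43 (2.33%, 0.412 to 12.1%). In the 70 copies with more than 1 changed base there was no peak, an upper bound of 5.2%, and the median identity of these copies to the consensus was 74.7%, against 86% for copies with an intact word. Copies with 2 intact words had a peak in 11 of 22 cases (50%, 30.7 to 69.3%), against 43 of 186 with 1 (23.1%, 17.6 to 29.7%). The intervals did not overlap, by a narrow margin.

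**Figure D3:**
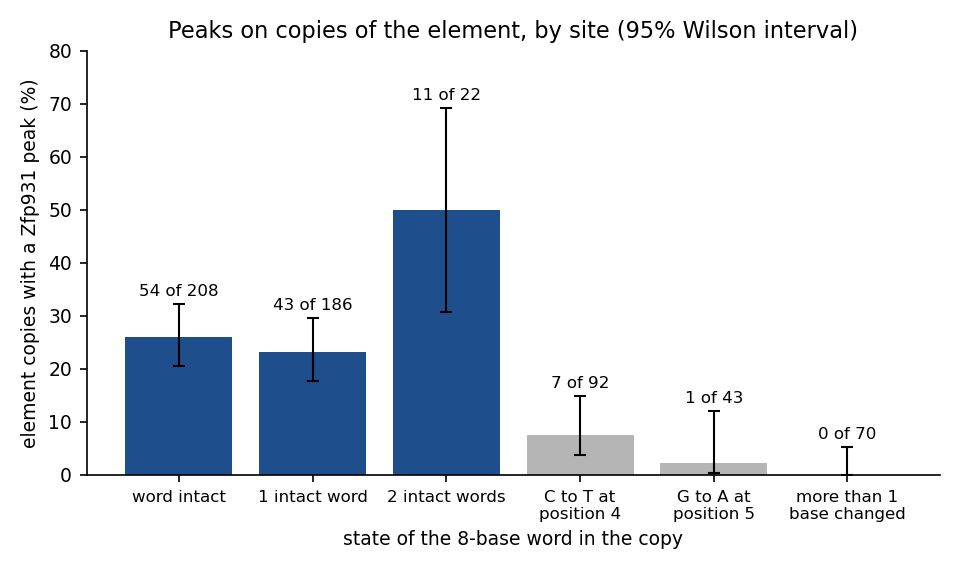
Share of copies of the element with a Zfp931 peak over the site (y axis), by the state of the 8-base word, with 95% Wilson intervals and counts above. The first bar adds up the 2 bars after it. Of copies with an intact word 26% have a peak, against 7.61% with C to T at position 4 and 2.33% with G to A at position 5. The word was chosen in windows with peaks.

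Copies with a peak were also closer to the consensus, with a median identity of 87.2% against 83.8%, and the consensus was built from windows with peaks. The sites were therefore read within bands of identity. Banding does not remove the choice of the word in windows with peaks, so these shares remain a description. Below 80% identity, no copy had a peak, 0 of 10 with the word and 0 of 58 without it. Between 80 and 85% identity, 12 of 75 copies with the word had a peak (16%, 9.4 to 25.9%) and 3 of 84 without it (3.57%, 1.22 to 9.98%). The intervals of this band overlapped by a narrow margin. Between 85 and 90%, the counts were 33 of 97 (34%, 25.4 to 43.9%) and 3 of 63 (4.76%, 1.63 to 13.1%), and these intervals did not overlap. Above 90% they were 9 of 26 (34.6%, 19.4 to 53.8%) and 4 of 29 (13.8%, 5.5 to 30.6%), and these intervals overlapped. Among the 155 full-length copies the shares were 22.4% (14.5 to 32.9%) with the word and 7.59% (3.53 to 15.6%) without it, and these intervals overlapped as well. All these intervals treat the copies as independent. Chromosome 12 held 50 of the 442 copies, and several of them had equal identity and the same change of the word.

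Single forms of the 25-base core were common enough to be compared. Each is shown with the word in capitals, and the forms differ at the position before the word, within the CpG, or 3 bases after the word.
Form A: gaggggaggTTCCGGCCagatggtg
Form B: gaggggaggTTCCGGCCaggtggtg
Form C: gaggggagaTTCCGGCCagatggtg
Form D: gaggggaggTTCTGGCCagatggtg
Form E: gaggggaggTTCCAGCCagatggtg

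A peak was present on 25 of 61 copies of form A, the consensus (41%), 14 of 57 of form B (24.6%), 8 of 26 of form C (30.8%), 6 of 34 of form D (17.6%) and 0 of 12 of form E. Forms that differ from the consensus at 2 positions are not shown, though some were commoner than form E. The change of form D had a peak on 1 of 19 copies when joined with that of form B, and on 0 of 17 with that of form C. The changes of forms E and B together had a peak on 0 of 14. These counts are small. The consensus base at each position was set by the grouped windows, which supply 63 of the 64 copies with a peak, so these copies match it more often by construction and the values are a description. Positions 5 to 8 and 10 to 12 of the core held the consensus base in 64 of 64 copies with a peak. The largest difference was at position 13, the C of the CpG, with the consensus base in 89.1% of copies with a peak and in 60.3% of copies without. Position 20, where A and G were both common, differed little (71.9% and 66.9%). Positions 21 to 24 held the consensus base in all copies with a peak and in 95.2 to 98.7% of the others.

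**Figure D4:**
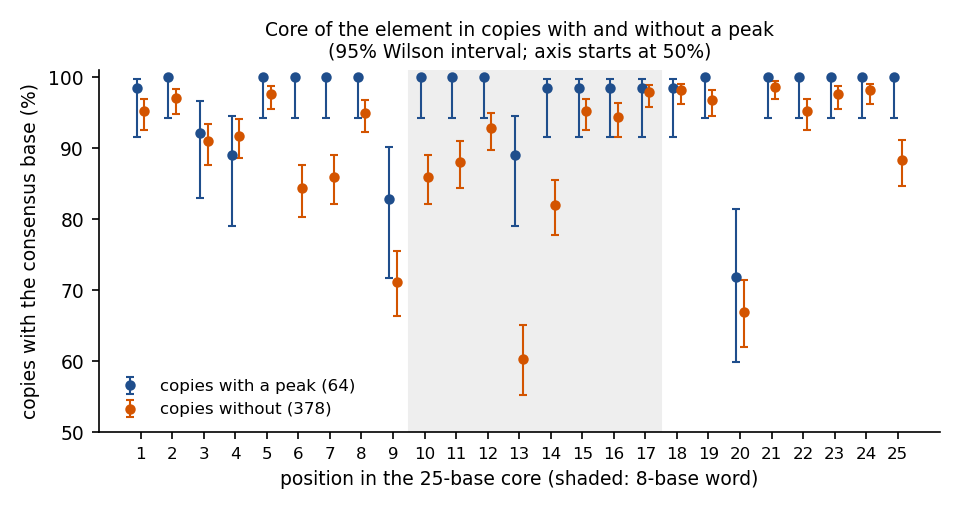
Share of copies with the consensus base at each of the 25 core positions (y axis, from 50%), in the 64 copies with a peak and the 378 without, with 95% Wilson intervals. The widest gap is at position 13, at 89.1% and 60.3%; position 20 varies in both sets, at 71.9% and 66.9%.

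Few Zfp931 peaks were shared with other samples, whether on the element or elsewhere. Of the 70 grouped peaks, 0 overlapped a peak of any of the 66 other samples by at least 25%. Among all 346 peaks the count was 16 (4.62%), and the difference between the group and the whole set was not tested. A peak of another sample lay on 3 of the 442 copies, none of them a copy with a Zfp931 peak. Of all 346 peaks, 5 (1.45%, 0.619 to 3.34%) were shared with another ES sample. Gm14295 shared 3 of them (0.867% of Zfp931 and 1.17% of Gm14295 peaks) and Gm14443, Gm14401 and Gm14420 shared 1 each, with 1 peak counted for both Gm14295 and Gm14443. The F9 embryonal carcinoma sample with the most shared peaks was Gm13152, with 5, among them the Rcor3 peak. These were 1.45% of Zfp931 peaks and 0.0964% of the 5189 Gm13152 peaks. The Fbxo17 peak (27 tags, fold 20.8), 377 bp from the start of this F-box gene and without the word, was shared with Zfp810.

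A larger share of peaks lay near gene starts than in 6 of the 8 other ES samples, a number that fell to 2 among peaks with a score over 100. Zfp931 had 36 of 346 peaks within 1 kb of a transcript start (10.4%, 7.61 to 14.1%), and 34 of these were outside the group. The share was higher than in Gm8898 (1.38%, Fisher's exact test, Benjamini-Hochberg adjusted p = 3.87e-13), Gm14295 (3.91%, Fisher's exact test, adjusted p = 0.00592), Gm4631, Gm14399, Gm14443 and Gm14419 (4.04 to 5.86%, Fisher's exact test, adjusted p = 0.00434 to 0.00728). It did not pass against Gm14420 (8.09%, Fisher's exact test, adjusted p = 0.306) or Gm14401 (12.8%, Fisher's exact test, adjusted p = 0.275). These two-sided tests compare the called peaks of single libraries, not conditions. Among the strongest peaks at starts were those of Ano6 (20 tags, fold 20.5), a phospholipid scramblase of the plasma membrane, at 40 bp, and Arf1 (25 tags, fold 11.9), a Golgi GTPase, at 213 bp, both without the word. Weaker ones lay 608 bp from n-R5s150 (16 tags), a ribosomal RNA gene, and in an intron of Anapc16 (17 tags), 7 bp from the start of Ascc1.

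Multi-copy sequence was less frequent than in 5 of the 8 other ES samples. A median 24-mer copy number of at least 10 was found in 124 of 346 windows (35.8%, 31 to 41%), of which 47 were in the group. The share was below that of Gm8898 (88.9%), Gm14419 (71.4%), Gm4631 (60.4%), Gm14443 (48.8%) and Gm14399 (46.9%), with Fisher's exact test adjusted p from 2e-88 to 0.00611, and above that of Gm14420 (25.1%, Fisher's exact test, adjusted p = 0.00263). It did not pass against Gm14295 (34.8%, Fisher's exact test, adjusted p = 0.91) or Gm14401 (36%, Fisher's exact test, adjusted p = 1). The split changed with the setting. From 1 higher and 5 lower it went to 2 and 3 at 2 copies, to 0 and 7 at 100 copies, to 0 and 6 with 36-mers, and to 3 and 4 with a score over 100, so the call above Gm14420 was lost in 2 of the settings.

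**Figure D5:**
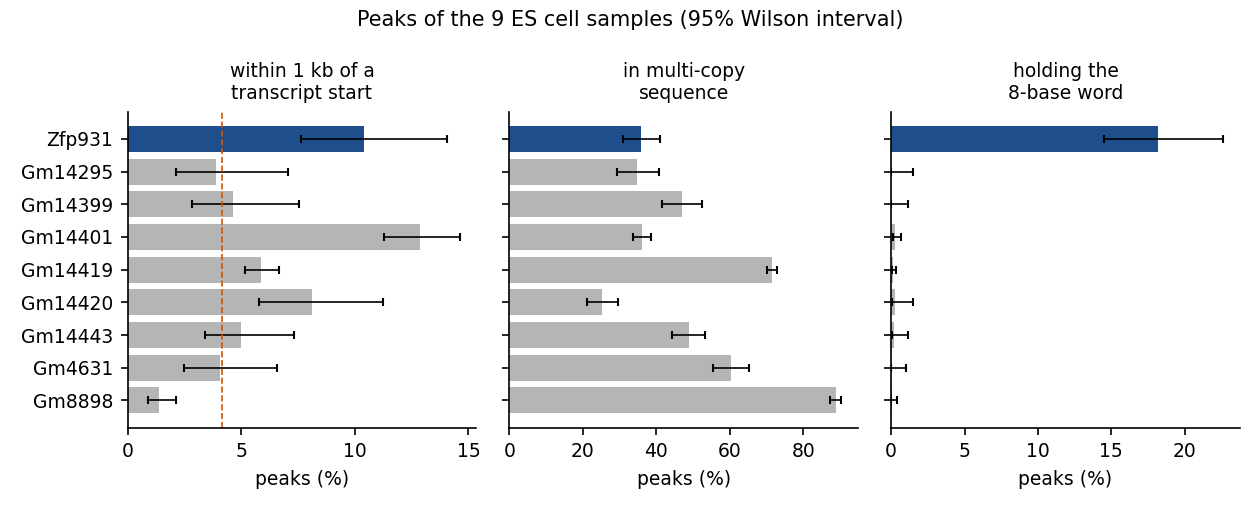
Share of peaks within 1 kb of a transcript start, in multi-copy sequence and holding the 8-base word, in each of the 9 ES samples (bars, percent of peaks, 95% Wilson intervals). The dashed line is the 4.15% of the genome within 1 kb of a start; the word in the right panel, chosen in the Zfp931 windows, is in 18.2% of them and in at most 0.261% of the others.

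The remaining peaks held few recurring features. The 2 groups of 6 windows reached scores of 70 and 55.9, and the members of the first with the highest fold lay far from genes, at 26.2 kb from Gpr85, 59.4 kb from Gnai1, 111 kb from Ube3a and 450 kb from Gm9726, or in Vmn2r19, a vomeronasal receptor gene. A run of 12 peaks lay within 942 kb of chromosome X that holds genes of the Astx family, with 10 to 38 tags, no word and a median 24-mer copy number of 65. The 66 other samples together had 73 peaks there. On chromosome Y, 4 peaks with 47 to 128 tags and folds of 4.15 to 5.11 lay within 9.71 kb, where no other sample had a peak. Their median 24-mer copy number was 125.5, so their reads may stem from other copies.

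Summits within 10 kb of listed genes were few. Of 21 genes of the heterochromatin machinery, Morc3 had a peak, a share of peaks of 0.289% against 0.0481% of the genome. That share is 1 peak, the highest of the set, and the list was chosen with earlier results of these data known. The comparison is therefore no test. Of 432 protein-coding genes with symbols starting with Zfp, Zkscan, Zscan or Zbtb, 3 did (Zfp560, Zfp640 and Zfp933). This was a share of peaks of 0.867% against 0.776% of the genome. Zinc finger genes with other symbols were left out, among them Gm13235, which held a peak in an intron (16 tags, fold 6.27). The Zfp933 peak (22 tags, fold 10.4, score 86.3) was a grouped one without an intact word. The 47 protein-coding genes of the chromosome 2 cluster, the 19 annotated pluripotency genes and the 19 annotated imprinted genes had none, in intervals that cover 0.0565%, 0.0289% and 0.0394% of the genome.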

How the data were processed

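The members and lists were chosen with earlier results of these data known. Reads of the Zfp931 ChIP (single-end) were aligned to mm9 with Bowtie (--best), which places a read that fits several loci at 1 of them, and peaks were called with MACS 1.4.2 at p under 1e-05 against TI_443_Input, without an enrichment threshold. The authors deposited, per peak, a tag count, a score (−10 log10 p), the fold (ratio to background), a false discovery rate in percent, and a position, with windows of 200 bp around the summit. Rows whose name matched no sample (244) were left out.

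Windows were compared with blastn 2.17.0 (e-value 1e-05) and grouped by single linkage, the grouped regions were aligned with MAFFT 7.526, and the consensus was searched against NCBIM37 (e-value 1e-10), with alignments up to 50 bp apart joined. Copies had up to 5 mismatches in any further site. Exact 24-mer copies were counted in the whole assembly. Starts came from GENCODE vM1. Fisher's exact tests (two-sided, 8 comparisons each, Benjamini-Hochberg) and Wilson intervals used scipy 1.17.1. Words of 8 to 12 bases found in at least 50% of grouped windows were ranked by their share over that of genome windows. The scripts were tested on simulated data. The text names the 20 peaks of highest fold, the 10 highest-scoring near starts and the 5 leading members of the 2 largest groups, in part by range. C2H2 patterns were counted in the longest annotated coding sequence, not the RefSeq protein that had been planned. The 8-base word, the words led by the group and read outside it, the element copies and the core forms were chosen after the values were seen.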

Additional observations from a re-analysis of the deposited data

How the results depend on the processing

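The number of Zfp931 peaks, 346, fell to 40 with a score over 100, to 215 with an enrichment over 10 and to 0 with a false discovery rate of at most 5%. With a score over 100, 29 of 40 peaks (72.5%) formed the largest group, the leading word was in 52.5%, 15% lay within 1 kb of a start and 47.5% in multi-copy sequence. The share near a start was 25.7% within 5 kb, a distance that covers 16.5% of the genome, and 7.51% with protein-coding transcripts only. The share of multi-copy sequence was 47.7% for at least 2 copies, 13.9% for at least 100 and 23.4% with 36-mers. The leading word was in 0% of peaks outside the group, and the 8-base word, an alternative chosen after seeing the data, was in 18.2% of all peaks. The 8-base word that leads in the group, also added then, was in 13.9%. The causes were not tested. The share of peaks shared with another ES sample stayed between 1.16% and 2.5%. Of the 8 ES samples, 6 differed in the share near a start, and 2 with a score over 100. Element copies with an intact word carried a peak with a score over 100 in 12% of cases, against 1.28% of copies with a changed word. As the word was chosen in windows with peaks, these 2 shares are a description.

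The values rest on 1 library and 1 input, so library and protein cannot be told apart. With a median of 11 tags per peak and false discovery rates of 31% or more, a copy without a peak is not shown to be unbound, and single weak peaks are uncertain. Reads that fit several copies were placed at 1 of them. No paired analysis was possible because each protein had 1 sample.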
